A study of Homo sapiens with 38 samples.

Results

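The HOX genes of the HOXA, HOXB, HOXC and HOXD clusters were followed through the 19 CUT&RUN peak lists of the study. The members were all protein-coding genes of GENCODE 44 on hg38 with the symbol HOXA, HOXB, HOXC or HOXD plus a number, which gave 39 of 20046 protein-coding genes. They fell into 11 HOXA genes in chr7:27092993-27200091, 10 HOXB genes in chr17:48528526-48728750, 9 HOXC genes in chr12:53938831-54056030 and 9 HOXD genes in chr2:176092721-176190907. A gene was called occupied when a peak lay within 1000 bp of the start of any of its annotated transcripts. Peaks inside a cluster, from the first to the last base of its HOX genes, were listed whether or not they lay near a start.

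HOX genes encode homeodomain transcription factors that give cells their position along the body axis. Their order along each cluster follows the order in which they are used from head to tail, and a higher number marks a more posterior gene. The clusters are dense in CpG islands and are classical targets of Polycomb repression and Trithorax-group activation. Sp1 is a zinc finger activator that binds the GC box, written here as GGGCGG on either strand, mostly in GC-rich promoters. CTCF is a zinc finger protein that binds a longer motif and marks the borders of chromatin domains, including borders within HOX clusters.

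The cells were U-2 OS, a human osteosarcoma line, with a V5-Halo tag knocked into the endogenous SP1 gene. The 38 samples were 2 replicates of 19 combinations of line and antibody, and each combination had 1 peak list made from both replicates. CTRL was the parental line. The other lines also carried, at the AAVS1 safe harbor locus, a dox-inducible FLAG-tagged construct: Sp1 WT, the Sp1 DNA-binding domain alone (Sp1 DBD), the disordered region of EWS on that domain (EWS IDR-Sp1 DBD), the CTCF DNA-binding domain (CTCF DBD), the disordered region of Sp1 on it (Sp1 IDR-CTCF DBD), LacI, Sp1 IDR-LacI, an Sp1 DBD Mutant with a single zinc finger left, and a SNAPf-NLS control. All samples are labelled as given doxycycline (1 μg/ml for 36 hours) and sorted. Sorted cells were then kept for another 36 hours in doxycycline. The construct was detected with a mouse anti-FLAG antibody, which was also used in CTRL beside a rabbit one. Endogenous Sp1 was detected with a rabbit and with a mouse anti-V5 antibody in CTRL and in the Sp1 WT, Sp1 IDR-LacI and Sp1 IDR-CTCF DBD lines. Every line keeps its endogenous Sp1, and the FLAG lists therefore describe a construct in cells that also hold V5-Halo-Sp1. Peak lists hold no expression values, so neither the cell line nor the activity of the HOX genes could be checked against marker genes here.

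The lists ranged from 22 peaks for CTRL with mouse anti-FLAG to 5151 for Sp1 WT with anti-FLAG. Each list is a single value without a replicate of its own, so no test between lists was made. The read depth behind the lists was not analysed here, and a gene without a peak is a gene with no reproducible peak in that list, not one with a measured absence of binding.

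Of the 39 HOX genes, 4 were occupied in at least 1 list: HOXC13, HOXC4, HOXA9 and HOXB6. There were 15 peaks near a HOX start or inside a cluster, and they merged into 5 sites. Of these, 2 came from Sp1-type lists, meaning the 8 anti-V5 lists and the FLAG lists of Sp1 WT, Sp1 DBD and EWS IDR-Sp1 DBD, and 3 came from CTCF DBD. The DNA at 2 of the sites is shown first. Each line gives the 100 bp to either side of a summit on the forward strand of hg38, with GC boxes in capitals, to show whether a box lies at the summit.
HOXC4 site, summit of the Sp1 WT anti-FLAG peak, chr12:54018154-54018354: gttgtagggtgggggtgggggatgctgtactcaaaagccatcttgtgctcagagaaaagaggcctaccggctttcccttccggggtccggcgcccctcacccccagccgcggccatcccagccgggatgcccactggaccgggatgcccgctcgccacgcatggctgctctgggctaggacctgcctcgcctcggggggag
HOXB6 site, summit of the CTCF DBD anti-FLAG peak, chr17:48602502-48602702: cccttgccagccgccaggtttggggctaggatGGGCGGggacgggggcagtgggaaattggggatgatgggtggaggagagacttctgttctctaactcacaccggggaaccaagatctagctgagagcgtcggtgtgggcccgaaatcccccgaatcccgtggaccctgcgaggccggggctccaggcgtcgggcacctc
The HOXB6 window held 1 GC box and the HOXC4 window held 0. Both windows were chosen after their values were seen. At the HOXC13 site and at the remaining CTCF DBD sites, 1 GC box lay within 100 bp of the summit.

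Sp1 WT, detected through FLAG, occupied 2 of 39 HOX genes (5.13%, exact 95% interval 0.627 to 17.3), HOXC13 and HOXC4, beside 23.7% of all protein-coding genes in the same list. At that share, 9.23 of 39 genes would carry a peak. Sp1 DBD occupied the same 2 genes, beside 16.1% of all genes. EWS IDR-Sp1 DBD occupied 1 HOX gene, HOXC4, beside 11.1%. By cluster, all these genes lay in HOXC, where 2 of 9 genes were occupied by Sp1 WT. None of the 11 HOXA, 10 HOXB or 9 HOXD genes had a peak of Sp1 WT, Sp1 DBD or EWS IDR-Sp1 DBD. The exact intervals cover counting error over genes only, and HOX genes of 1 cluster are neighbours that can share a peak.

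Endogenous Sp1 was detected at HOXC13 alone. HOXC13 was the sole occupied HOX gene in 7 of 8 anti-V5 lists, a share of 2.56% (exact 95% interval 0.0649 to 13.5). In CTRL the share of all protein-coding genes was 10.4% with the rabbit and 9.75% with the mouse antibody. It was 11.0% and 8.79% in the Sp1 IDR-LacI line, and 11.1% and 7.33% in the Sp1 IDR-CTCF DBD line. In the Sp1 WT line, the mouse anti-V5 list held HOXC13 beside 6.80% of all genes. The rabbit anti-V5 list of that line held 0 of 39 HOX genes (exact 95% interval 0 to 9.03) beside 8.65%, and its nearest peak to HOXC13 was 210.9 kb away.

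CTCF DBD occupied 2 of 39 HOX genes, HOXA9 and HOXB6, beside 1.88% of all protein-coding genes, a share at which 0.732 of 39 genes would carry a peak. This was the only list in which the HOX share lay above that of all genes, and it rests on 2 genes. Sp1 IDR-CTCF DBD, which carries the same DNA-binding domain, occupied 0 of 39 beside 0.574%, from a list of 166 peaks against 649. The other 6 anti-FLAG lists held no HOX gene either. All protein-coding genes stood at 0.00499% for Sp1 IDR-LacI, at 0.0649% for CTRL with rabbit anti-FLAG, and at 0% for CTRL with mouse anti-FLAG, LacI, Sp1 DBD Mutant and SNAPf-NLS.

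**Figure D1:**
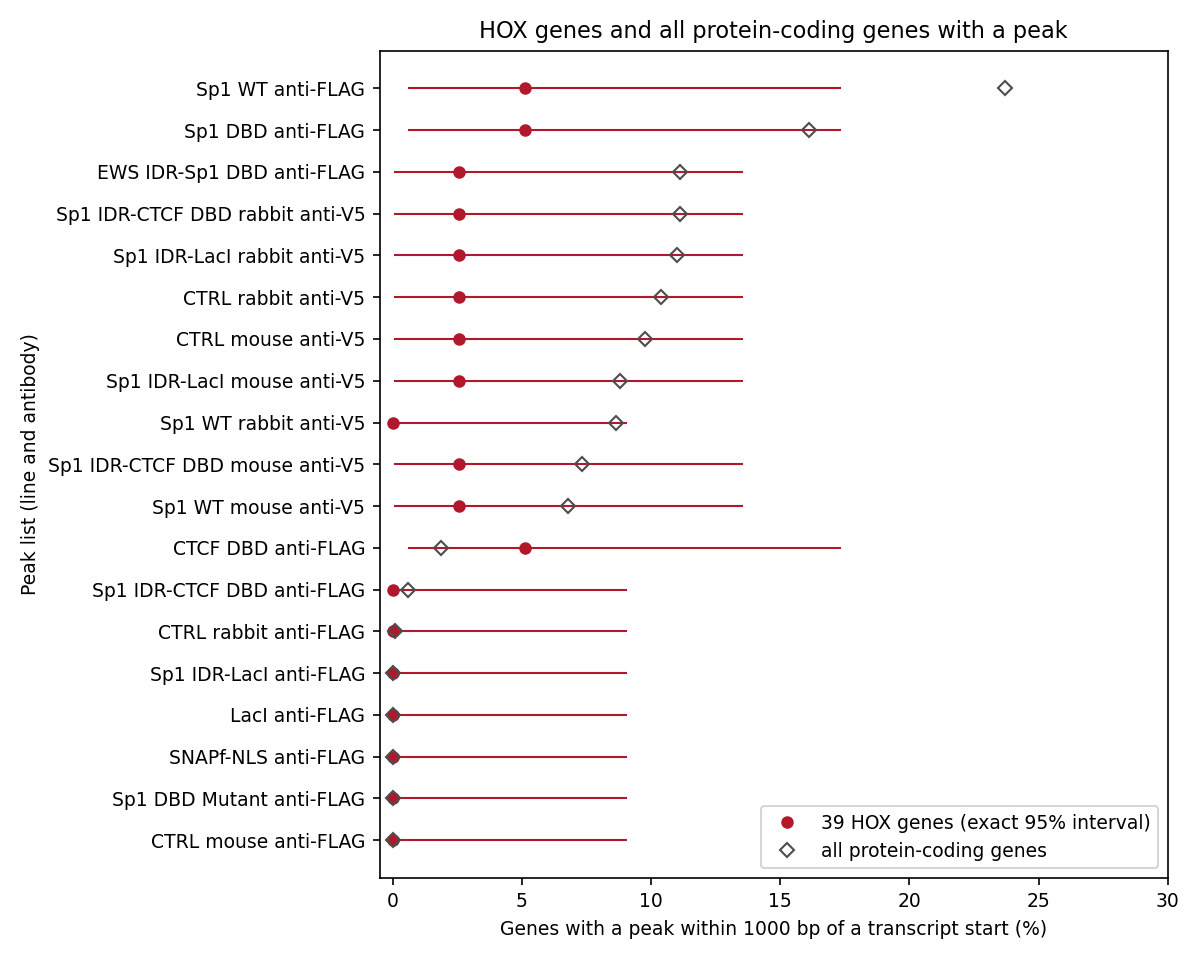
Share of the 39 HOX genes (red, with exact 95% intervals for counting error) and of all protein-coding genes (open diamonds) with a peak within 1000 bp of a transcript start, in percent, for each of the 19 lists. Sp1 WT anti-FLAG shows 5.13% of HOX genes beside 23.7% of all genes, and CTCF DBD anti-FLAG shows 5.13% beside 1.88%.

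The HOXC13 site recurred in more lists than any other. HOXC13, the most posterior gene of its cluster, encodes a regulator of hair and nail differentiation. Over its 9 lists the site lay just upstream of and across the start of HOXC13, and its summits lay in an intron of the antisense lncRNA HOXC13-AS. The summits fell from 216 to 171 bp upstream of the HOXC13 start, a spread of 45 bp over 9 lists. The nearest GC box upstream of the start began at 226 bp before it, so the summits lay 10 to 55 bp downstream of the first base of that box. The CTRL summits of both V5 antibodies were the nearest to it, at 10 bp, and the Sp1 DBD summit was the farthest, at 55 bp.

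**Figure D2:**
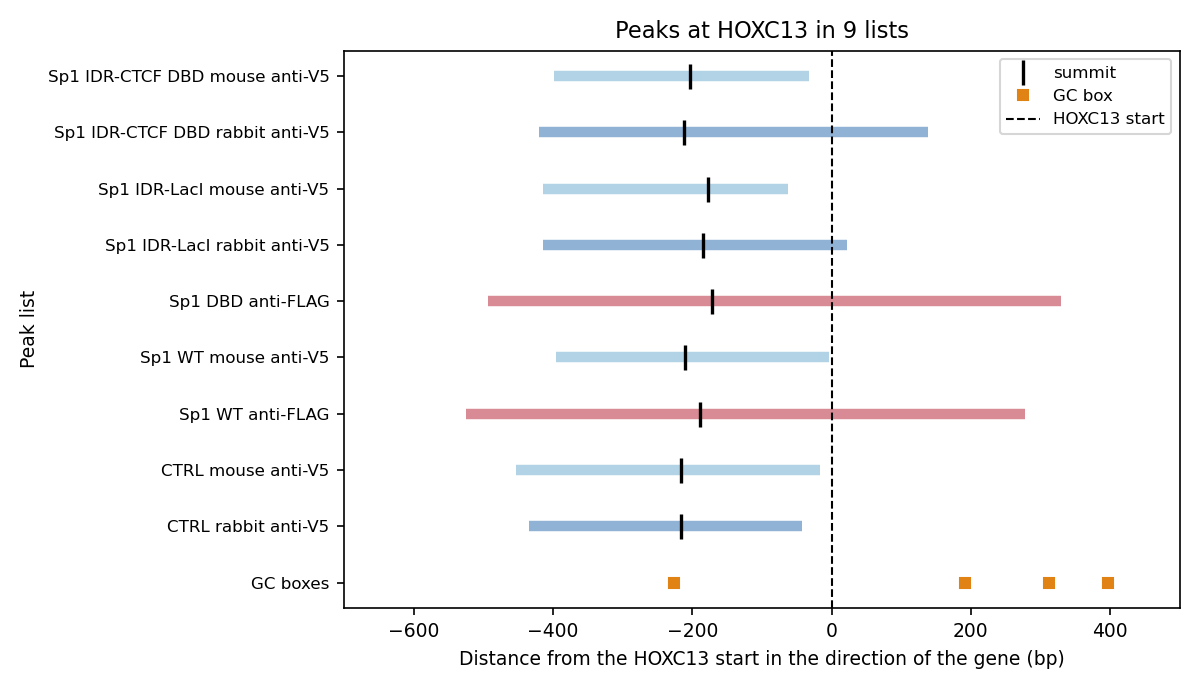
Extent of the HOXC13 peak (bars: red for anti-FLAG, dark blue for rabbit anti-V5, light blue for mouse anti-V5) and its summit (black ticks) in 9 lists, in bp from the HOXC13 start (dashed line) in the direction of the gene, with the first base of each GC box (squares). All summits lie between 216 and 171 bp upstream of the start, next to the box at 226 bp.

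The peaks of the constructs were longer there than those of endogenous Sp1. The HOXC13 peak measured 804 bp for Sp1 WT and 824 bp for Sp1 DBD with anti-FLAG, and 353 to 560 bp in the 7 anti-V5 lists. Median peak lengths over whole lists were 941 and 926 bp for these FLAG lists and 558 to 669 bp for the anti-V5 lists. Of the 9 peaks, 5 ended 4 to 63 bp before the HOXC13 start, outside the first-to-last-gene interval of the cluster, and the other 4 reached over it.

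HOXC13 peaks ranked near the middle of most lists. The Sp1 WT peak had a −log10 p of 27.7, with 27.7 and 57.6 in its replicates, and ranked 1372 of 5151. The Sp1 DBD peak had a −log10 p of 16.9, with 16.9 and 20.6 in its replicates, and ranked 1508 of 3277. The site thus stood 26.6% of the way down the Sp1 WT list and 46.0% of the way down the Sp1 DBD list. Cut to 1332 peaks, the length of the shortest Sp1-type list, the Sp1 WT, Sp1 DBD and EWS IDR-Sp1 DBD lists held 0 HOX genes, while HOXC13 was still held by 7 of 8 anti-V5 lists, those that had it at full length. With anti-V5 in CTRL, the replicate −log10 p values were 21.5 and 33.0 for the rabbit antibody and 28.2 and 49.7 for the mouse antibody. In the Sp1 IDR-LacI line they were 17.8 and 37.9 for the rabbit and 15.4 and 26.4 for the mouse antibody. In the Sp1 IDR-CTCF DBD line they were 21.8 and 29.8 for the rabbit and 18.5 and 18.8 for the mouse antibody. The site ranked between 38.0% and 67.9% of the way down these 6 lists.

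The Sp1 WT line was the exception among the anti-V5 lists. Its mouse anti-V5 peak had replicate values of 12 and 19.8, ranked 1164 of 1332, and had a global IDR (the estimated rate of irreproducible peaks) of 0.0888, close to the limit of 0.1 for the deposited lists. Its rabbit anti-V5 list has no peak there. These values describe single lists, and the difference between lines could not be tested.

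The HOXC4 site was in 3 lists, those of the FLAG constructs Sp1 WT, Sp1 DBD and EWS IDR-Sp1 DBD, and in none of the anti-V5 lists. HOXC4 is the most anterior gene of the HOXC cluster. The site spanned chr12:54017043-54019651, with its summits in introns of long HOXC4 and HOXC6 transcripts, of the lncRNA ENSG00000273046 and of the protein-coding readthrough gene ENSG00000273049. The call rests on an upstream start of HOXC4, since the canonical start lies far downstream at position 54053835. The Sp1 WT peak began 112 bp from that upstream start, the Sp1 DBD peak 624 bp and the EWS IDR-Sp1 DBD peak 874 bp. The peaks narrowed in the same order, from 2609 to 1637 to 1014 bp, while their summits stayed within 54 bp of each other.

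At HOXC4 the Sp1 WT peak had replicate −log10 p values of 22 and 25.3 and ranked 2027 of 5151. The Sp1 DBD values were 14.5 and 20.9, at rank 1901 of 3277. The EWS IDR-Sp1 DBD values were 13.6 and 11.3, at rank 2157 of 2535, and its global IDR was 0.0659. GC boxes were spread through these broad peaks, with 9 in the Sp1 WT peak, 6 in the Sp1 DBD peak and 5 in the EWS IDR-Sp1 DBD peak. Within 100 bp of the summit there were 0, 1 and 0 of them.

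**Figure D3:**
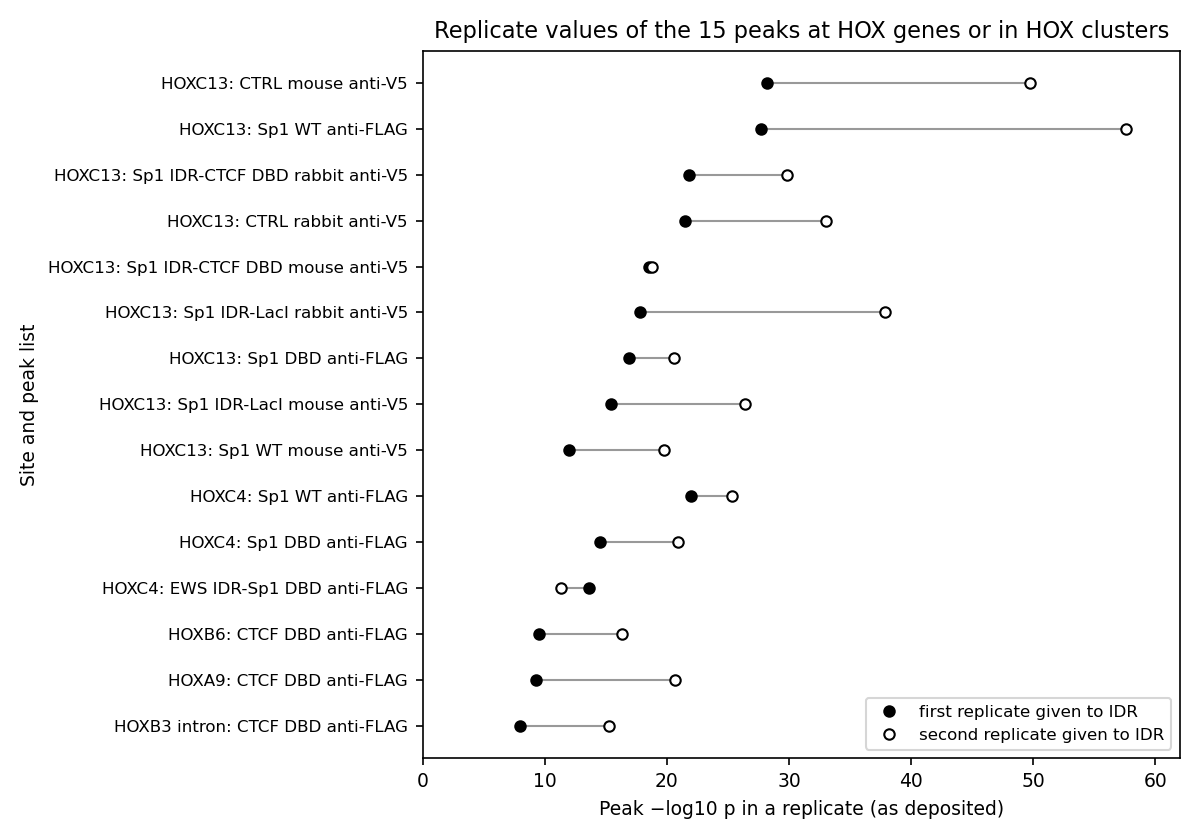
Deposited −log10 p of the 15 peaks in the first (filled) and second (open) replicate given to IDR, by site and list. The HOXC13 values reach 57.6 with Sp1 WT anti-FLAG, and the CTCF DBD values stay at 20.7 or below.

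In 14 of the 15 peaks the first replicate given to IDR had the lower value, and the same was true of most peaks in most lists. It held for 96.9% of all peaks in the Sp1 WT anti-FLAG list and for 99.8% in the CTRL mouse anti-V5 list, but for 53.1% in the Sp1 DBD list and 63.1% in the EWS IDR-Sp1 DBD list. The deposited columns do not say which labelled replicate is which.

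CTCF DBD had 3 peaks in the clusters, at ranks 385 to 561 of 649. The HOXA9 peak, chr7:27164385-27165765, lay across the canonical start of HOXA9, with its summit 114 bp downstream of that start. HOXA9 encodes a regulator of blood progenitors that is often overexpressed in leukaemia. Its replicate −log10 p values were 9.25 and 20.7, at rank 425 of 649. The HOXB6 peak, chr17:48602295-48603155, had values of 9.53 and 16.3 at rank 385, and reached within 977 bp of a HOXB6 start, just inside the limit of 1000 bp. It lay over a start of the lncRNA HOXB-AS3. The peak in a HOXB3 intron had values of 7.99 and 15.3 at rank 561 and lay 2717 bp from the nearest HOX start.

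None of the CTCF DBD peaks held the CTCF core motif, which 13.9% of that list's peaks held. Each of them had 1 GC box within 100 bp of its summit, as did 31.0% of all peaks of the list. This exact form occurred 3 times in the clusters, with 1 match in HOXA and 2 in HOXB, at 2748 to 29750 bp from the nearest HOX start. No list had a peak over any of these matches. A match or its absence is a statement about letters only.

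**Figure D4:**
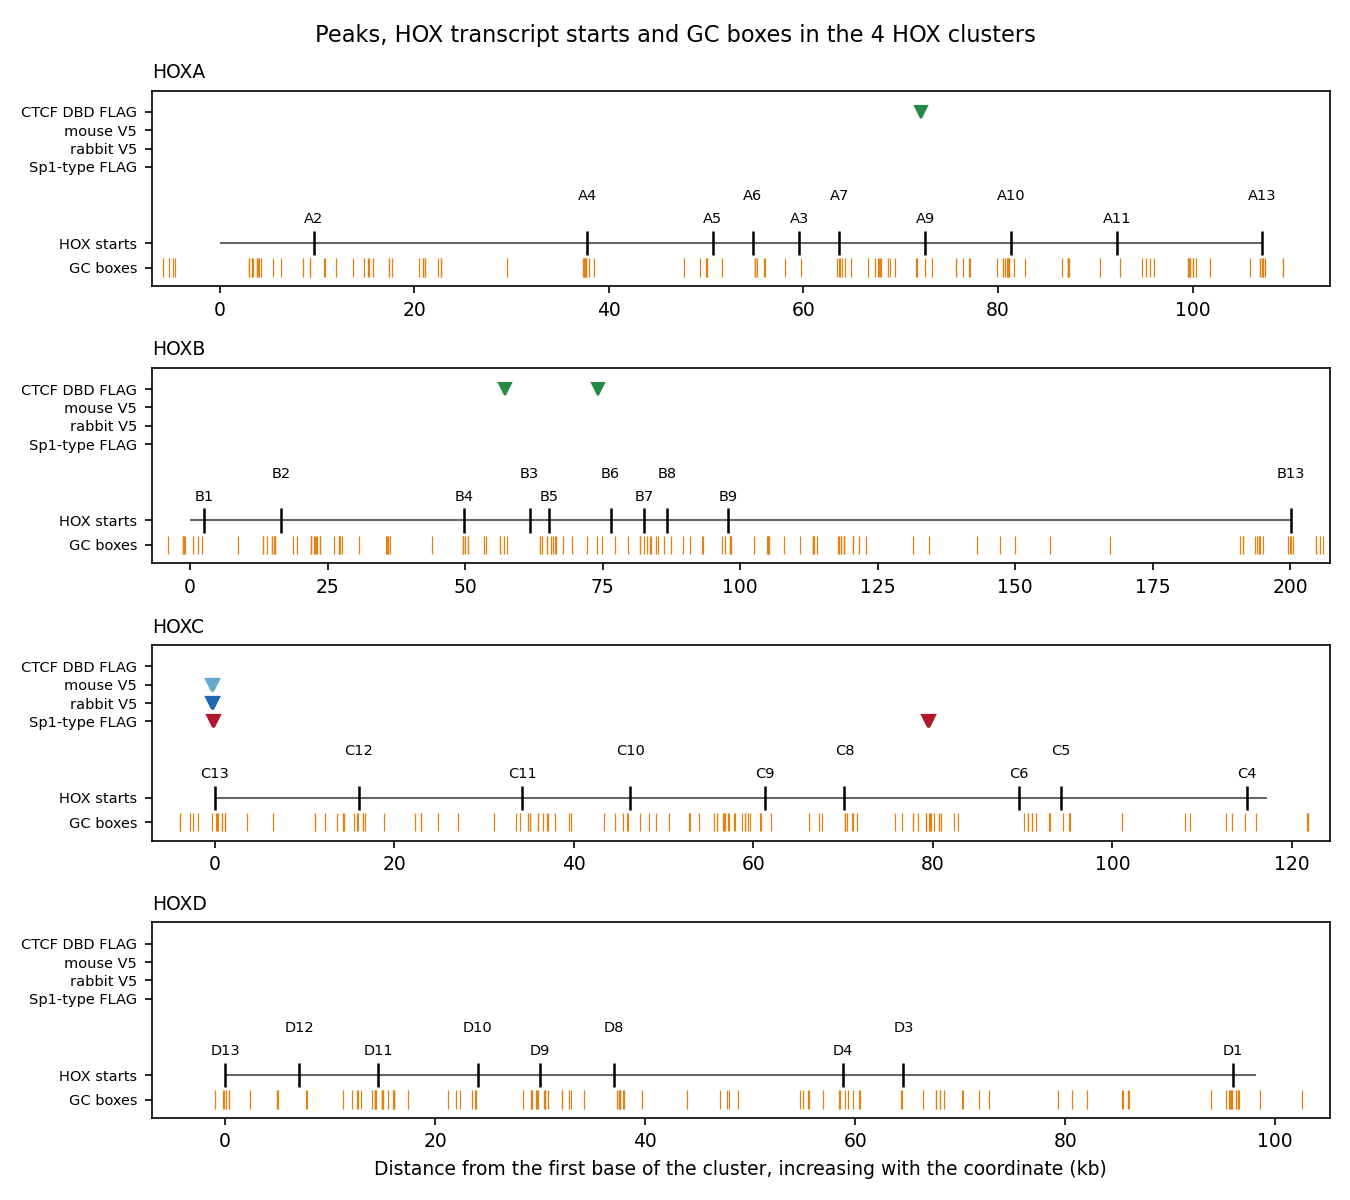
Map of the 4 clusters in kb from the first base of the cluster, with the canonical starts of HOX genes (black ticks), GC boxes (orange ticks) and peaks by kind of list (triangles at the middle of each peak; peaks of several lists of a kind coincide). HOXA and HOXB hold only the 3 CTCF DBD peaks, HOXC holds the 2 Sp1-type sites, and HOXD holds none.

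The map shows GC boxes through all 4 clusters and peaks at few of them. The clusters held 472 GC boxes in 523 kb, at 11.0 per 10 kb in HOXA, 6.39 in HOXB, 9.90 in HOXC and 11.2 in HOXD. HOXD, with the highest density of GGGCGG, had no peak in any list. It held the fewest matches of the longer form GGGGCGGGG, with 6, beside 12 in HOXA, 26 in HOXB and 22 in HOXC. The Sp1-type lists had no peak in HOXA or HOXB either, and a link between these matches and peaks was not tested. Sp1 WT had 2 peaks overlapping the clusters, or 3.83 per Mb, beside 1.74 per Mb over the main chromosomes. CTCF DBD had 3, or 5.74 per Mb beside 0.215 per Mb. For Sp1 WT the clusters thus stood above the whole genome per length and below it per gene, and both values rest on 2 peaks in clusters that hold 39 genes in 523 kb.

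Distances to the nearest Sp1 WT peak differed widely by cluster. For HOXC genes the distance from any start to the nearest peak ranged from 0 to 34.0 kb, with a median of 13.4 kb. It ranged from 102 to 300 kb for HOXB genes, from 463 to 567 kb for HOXA genes and from 924 to 1020 kb for HOXD genes. The nearest genes inside the limit of 1000 bp were HOXC13 at 0 bp and HOXC4 at 112 bp, and the nearest outside was HOXC6 at 1146 bp, which lies by the same peak as HOXC4.

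The 35 genes with no peak in any list were counted by cluster. The 10 in HOXA included HOXA2, HOXA3, HOXA4, HOXA5, HOXA6, HOXA7, HOXA10, HOXA11 and HOXA13. In HOXB they were HOXB1, HOXB2, HOXB3, HOXB4, HOXB5, HOXB7, HOXB8, HOXB9 and HOXB13. In HOXC they were HOXC5, HOXC6, HOXC8, HOXC9, HOXC10, HOXC11 and HOXC12. In HOXD they were all 9 genes: HOXD1, HOXD3, HOXD4, HOXD8, HOXD9, HOXD10, HOXD11, HOXD12 and HOXD13. The call for HOXC5 depends on the annotation. HOXC5 has 1 start in the annotation used for the calls, 13.4 kb from the nearest Sp1 WT peak. RefSeq, another annotation, gives HOXC5 the same upstream window as HOXC4, chr12:54016638-54016887. The Sp1 WT peak at HOXC4 began at 54017043, so HOXC5 would count as occupied from that RefSeq start.

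HOX promoters held as many GC boxes, by the median, as promoters at large. Within 1000 bp of the canonical start, the median number of GC boxes was 4 in HOX genes (range 0 to 11) and 4 in all protein-coding genes. At least 1 box was present in 37 of 39 HOX genes (94.9%) and in 81.7% of all genes. The median GC content was 59.4% in HOX promoters and 56.0% in all promoters, and the median ratio of observed to expected CpG was 0.70 and 0.64. The genes with a Sp1 WT peak had a median of 6 boxes, a GC content of 59.0% and a CpG ratio of 0.70. The longer form GGGGCGGGG was present in 38.5% of HOX promoters, 40.4% of all promoters and 63.6% of promoters with a Sp1 WT peak.

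The clusters differed among themselves in these features. HOXD promoters had a median of 6 GC boxes and 64.2% GC, and HOXA promoters 5 boxes and 59.7% GC. HOXC promoters had 3 boxes and 59.2% GC, and HOXB promoters 3 boxes and 55.6% GC. The longer form had another order, with 11.1% of promoters in HOXD, 30.0% in HOXB, 54.5% in HOXA and 55.6% in HOXC. The genes with 9 to 11 boxes were HOXA4, HOXA10, HOXD1, HOXD8, HOXD9 and HOXD11, and HOXD1 and HOXD11 had 11 each. HOXB2 and HOXB3 had 0. HOXC13 had 6, HOXA9 5, HOXC4 2 and HOXB6 1.

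Among all protein-coding genes, the share with a Sp1 WT peak rose with the number of boxes. It was 3.11% at 0 boxes, 11.9% at 1 to 2, 27.5% at 3 to 5, 37.2% at 6 to 8 and 41.5% at 9 or more. The occupied HOX genes in the same classes were 0 of 2, 1 of 10, 0 of 14, 1 of 7 and 0 of 6. Boxes were counted at the canonical start, but peaks at any start. The 1 of 10 was HOXC4, called at an upstream start far from its canonical one, and its Sp1 WT peak held 9 boxes. For CTRL with rabbit anti-V5 the share over all genes was 11.5% at 3 to 5 boxes, 16.6% at 6 to 8 and 19.8% at 9 or more, and the HOX counts were 0 of 14, 1 of 7 and 0 of 6. For Sp1 DBD the shares in these 3 classes were 15%, 26.2% and 37.0%, and the HOX counts were again 0 of 14, 1 of 7 and 0 of 6. Classes of 2 to 14 genes allow no finer reading.

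**Figure D5:**
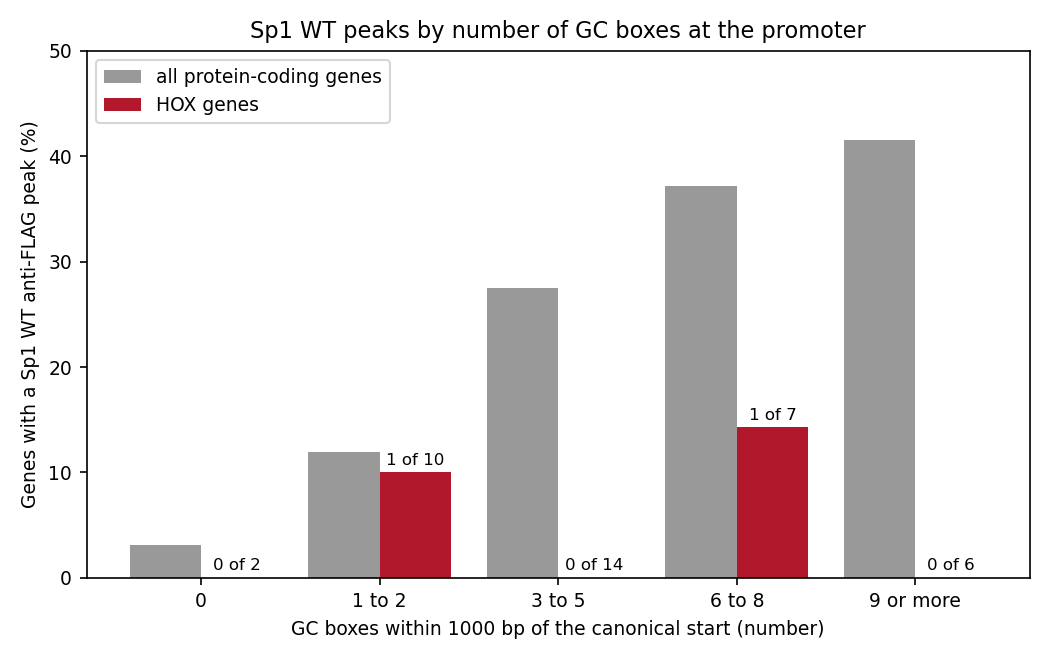
Share of all protein-coding genes (grey) and of HOX genes (red, with counts) with a Sp1 WT anti-FLAG peak, in percent, by the number of GC boxes within 1000 bp of the canonical start. The share over all genes goes from 3.11% to 41.5%, while the HOX counts are 1 of 10 and 1 of 7 in the classes with any occupied gene. Peaks count at any annotated start, and the 1 of 10 is HOXC4, called at an upstream start and not at the canonical one.

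The upstream sequences of unoccupied HOX genes show what such GC-box promoters look like. Promoter windows from RefSeq (GRCh38.p14), which run from 250 bases before to 50 after a start, were matched for 20 HOX genes. A GC box occurred in the windows of 10 of these 20 genes and in 45% of 35116 RefSeq windows. HOXC4 and HOXC5 share a window, which held 0 boxes. The largest number in an unoccupied HOX gene was 4, reached by HOXA3, HOXA6, HOXA13 and HOXD1. The 250 bases before the start are shown in the direction of the gene for HOXA6, HOXA13 and HOXD1, with GC boxes in capitals and overlapping boxes run together.
HOXA6, chr7:27147775-27148024, reverse strand: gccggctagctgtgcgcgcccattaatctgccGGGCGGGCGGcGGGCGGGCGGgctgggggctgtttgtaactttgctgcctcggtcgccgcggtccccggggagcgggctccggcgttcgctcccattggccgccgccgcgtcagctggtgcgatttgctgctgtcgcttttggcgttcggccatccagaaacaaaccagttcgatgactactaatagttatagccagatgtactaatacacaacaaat
HOXA13, chr7:27200092-27200341, reverse strand: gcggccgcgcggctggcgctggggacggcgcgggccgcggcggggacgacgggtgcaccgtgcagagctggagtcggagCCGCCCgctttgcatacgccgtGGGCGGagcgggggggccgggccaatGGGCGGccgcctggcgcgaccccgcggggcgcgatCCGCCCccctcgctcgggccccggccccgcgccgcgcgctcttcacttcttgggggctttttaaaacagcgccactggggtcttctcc
HOXD1, chr2:176188418-176188667, forward strand: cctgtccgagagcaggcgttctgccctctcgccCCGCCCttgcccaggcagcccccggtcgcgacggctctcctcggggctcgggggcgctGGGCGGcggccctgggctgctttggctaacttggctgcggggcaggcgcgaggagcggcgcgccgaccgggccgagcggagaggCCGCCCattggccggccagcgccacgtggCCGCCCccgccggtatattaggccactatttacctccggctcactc
HOXA13 is a posterior gene needed for distal limb and genital development, and HOXD1 is the most anterior HOXD gene. Beside the HOXC13 site, which had 1 box within 100 bp of its summit and recurred in 9 lists, each of these windows held 4 and had no peak in any of the 19 lists. The windows were chosen for many boxes and no peak, so this contrast follows from the choice. The HOXC13 peak held 1 match of the longer form GGGGCGGGG in each list, and none of the windows shown held that form, but the peaks are longer than these windows. Within 1000 bp of the canonical start, HOXC13, HOXA6 and HOXA13 held 1 match each and HOXD1 held 0.

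Of the 57 noncoding genes annotated in the clusters, 4 were near a peak in at least 1 list, beside 5.32% of all 42654 noncoding genes. All 4 were among the 28 lncRNAs, beside 9.73% of all 18866 lncRNAs. HOXC13-AS was occupied in the same 9 lists as HOXC13. ENSG00000273046 was occupied in the 3 lists with the HOXC4 site, and ENSG00000260597 in the Sp1 WT and Sp1 DBD lists. HOXB-AS3 was occupied by CTCF DBD. None of the 8 miRNA genes was near a peak, a set too small to read against the 5.32% of all noncoding genes.

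Genes next to the clusters were looked up in the same way. Of the nearest protein-coding neighbours, SKAP2, EVX1, SKAP1, TTLL6, SMUG1, EVX2 and MTX2 had no peak in the 11 Sp1-type lists. CALCOCO1, an autophagy receptor gene 211 kb from the HOXC cluster, was occupied in all 11. These lists covered 6.80% to 23.7% of all protein-coding genes, shares at which most of so few neighbours would have no peak. The ParaHox genes GSX1, GSX2, PDX1, CDX1, CDX2 and CDX4 and the homeobox genes EVX1 and EVX2, relatives of the HOX genes, gave 0 of 8 in each of these lists and in the CTCF DBD list. With so few genes, shares of 1.88% to 11.1% over all protein-coding genes, as in the CTCF DBD, EWS IDR-Sp1 DBD and anti-V5 lists, correspond to less than 1 gene of 8. The share was higher in the anti-FLAG lists of Sp1 DBD (16.1%) and Sp1 WT (23.7%).

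Partners and regulators of HOX proteins had other counts. Of the 9 TALE homeodomain cofactors, which bind DNA together with HOX proteins, Sp1 WT occupied 3, among them PBX3 (−log10 p 25.2) and PKNOX1 (19.6), beside 23.7% of all genes. Of 24 Polycomb and Trithorax-group genes it occupied 15 (62.5%). The strongest peaks among them were at KDM6B, an H3K27 demethylase gene (66.0, rank 141), at CBX8, a Polycomb chromodomain gene (52.9, rank 315), and at EZH1, an H3K27 methyltransferase gene (41.5, rank 604). The others included EED, SUZ12, RBBP4, RBBP7, BMI1, CBX2, PHC2, KMT2A, KMT2B, MEN1 and ASH2L, with −log10 p from 9.03 at RBBP7 to 23.7 at MEN1. Sp1 DBD occupied 13 of the 24 (54.2%, beside 16.1% of all genes) and EWS IDR-Sp1 DBD 6 (25.0%, beside 11.1%). In the anti-V5 lists the count was 1 or 2 of 24 (4.17% or 8.33%, beside 6.80% to 11.1% of all genes), with CBX8 in each of them. These lists were drawn up with earlier results of the data known, and nothing was tested on them.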

How the data were processed

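CUT&RUN peak lists were analysed for 19 combinations of line and antibody in U-2 OS cells, each with 2 replicates. By the study's methods, reads were trimmed with Cutadapt 2.6, aligned to hg38 with Bowtie2 2.3.5.1 and deduplicated with SAMtools 1.9. Peaks were called with MACS3 (given as 2.2.7.1) with a permissive cutoff of 1e-3 on the p-value and no local background, against merged control replicates, and kept at IDR of at most 0.1. The authors deposited, for each peak, a −log10 p-value of the merged peak, a −log10 p-value in each of the replicates, and a score that is the −log10 of the global IDR. In all 19 lists the merged value equals the smaller replicate value. Whether a blacklist was applied to peaks is not given in the sources used here. The 6 tables of differential regions hold the authors' own comparisons and were not used.

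Peaks were matched to GENCODE 44 on hg38. All 60 sequence names of the lists are in this reference, and 0 peaks ran past a sequence end. Overlap meant at least 1 bp. Peaks were ranked within a list by −log10 p. Motifs were counted on both strands with overlaps. Scripts used Python 3.11.15, pysam 0.24.0 and SciPy 1.17.1 (Clopper-Pearson intervals, 95%), and were tested on simulated data. No read depth was analysed, so precision is given as counting error over genes only. No test was made, since a list has no replicate. Every HOX gene with a peak was named with its values, and the others by cluster, and some items are not reported here. The members and gene lists were chosen with earlier results of these data known. Alternatives covered the IDR limit, the distance, the choice of start, the list length, the control peaks, the cluster borders and the motif.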

Additional observations from a re-analysis of the deposited data

How the results depend on the processing

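Of 159 values recomputed under other settings, 121 stayed within 1.5 times the reported count and 38 did not. With counts this small, a change by 1 can move a value past that limit. A change from 2 to 1, from 1 to 2 or from 0 to 1 passed it, and a change from 2 to 3 or from 3 to 2 did not. With global IDR of at most 0.05, occupied HOX genes became 0 for EWS IDR-Sp1 DBD (cluster peaks 0) and for Sp1 WT mouse anti-V5, and cluster peaks went from 3 to 2 for CTCF DBD. With at most 0.01, they became 1 for Sp1 WT anti-FLAG (cluster peaks 1), and 0 for Sp1 DBD, EWS IDR-Sp1 DBD and CTCF DBD (cluster peaks 0 in each) and for the mouse anti-V5 lists of the Sp1 WT and Sp1 IDR-CTCF DBD lines. Within 500 bp, counts were 1 for Sp1 DBD and CTCF DBD and 0 for EWS IDR-Sp1 DBD, and within 5000 bp they rose to 2 for EWS IDR-Sp1 DBD and to 3 for Sp1 WT and Sp1 DBD, by HOXC6, and to 3 for CTCF DBD, by HOXB3. Measured from the summit, or from the canonical start only, they were 1 for Sp1 WT, Sp1 DBD and CTCF DBD, and 0 for EWS IDR-Sp1 DBD: HOXC4 and HOXB6 were lost. With lists cut to their 1332 strongest peaks, they were 0 for Sp1 WT, Sp1 DBD and EWS IDR-Sp1 DBD. With summits required inside a cluster, cluster peaks became 1 for Sp1 WT and Sp1 DBD and 0 for the rabbit anti-V5 lists of the Sp1 IDR-LacI and Sp1 IDR-CTCF DBD lines. With clusters extended by 10000 bp, they became 1 for both CTRL anti-V5 lists and for the mouse anti-V5 lists of the Sp1 WT, Sp1 IDR-LacI and Sp1 IDR-CTCF DBD lines. With the longer box, 15 HOX promoters in place of 37 held a match. Leaving out peaks of the control lists gave the reported counts.

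No paired analysis was possible because each list was made from both replicates, and for the same reason no replicate was left out. Depth was not analysed, so how many HOX genes a deeper library would list is unknown.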
